A study of Mus musculus with 12 samples.

Results

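The 90 cytosolic ribosomal protein genes of the mouse were followed in nuclear RNA of the cortex at birth (P0), postnatal day 14 (P14) and postnatal day 28 (P28). They were chosen by symbol alone from the 25834 genes present at all 3 ages: every gene whose symbol begins with Rpl or Rps and a digit, together with Rplp0, Rplp1, Rplp2 and Rpsa. The ribosomal S6 kinases, Rps19bp1 and 113 genes named as pseudogenes were left out. Of the 90 genes, 53 belong to the large subunit and 37 to the small subunit, and RefSeq classes 86 as protein coding and 4 as pseudogenes. The level of 84 of them was high enough to be tested, which required a level of at least 1 scaled CPM, the library-size-corrected read unit used throughout, in at least 4 libraries.

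All 12 libraries came from male mice of the genotype CAG-Sun1/sfGFP +/-; NEX-Cre +/-, with 4 biological replicates at P0, 4 at P14 and 4 at P28. Every group thus carried both alleles, and no group lacked them. The names of the libraries follow one scheme at P0 and P14 and another at P28, where most carry a date, and each age was deposited as a table of its own. Age and whatever these differences stand for cannot be told apart. NEX-Cre is active in the excitatory neuron lineage of the forebrain and switches on a GFP-tagged nuclear envelope protein, Sun1, by which nuclei were immunopurified before polyadenylated RNA was extracted and sequenced. P0 replicate 1 and P28 replicate 4 are labelled as merged.

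A cytosolic ribosome is built from a small subunit, which reads the mRNA, and a large subunit, which joins amino acids. Each protein is needed in fixed proportion to the others, and the genes are transcribed at high levels in most cells. Their mRNAs typically begin with a C and a run of pyrimidines, the terminal oligopyrimidine (TOP) motif, through which mTOR signalling controls their translation. A few members have related copies, or paralogs, that can take the place of the usual protein in some tissues. Here the RNA is nuclear, so the values describe transcripts held in nuclei and not the protein or the cytoplasmic mRNA.

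The start regions of 8 members are shown so that members with and without a pyrimidine run at the RefSeq start can be set beside their values. Of these, 7 fell from P0 to P14 and Rpl22l1 rose. Each runs from 40 bases before to 20 bases after the RefSeq transcript start in GRCm38.p6, 5′ to 3′, with capitals marking the longest pyrimidine run (a C followed by at least 5 of C or T) whose first base lies within 10 bases of the start. The first 5 hold such a run and the last 3 do not.
Rps9, chr7:3704001-3704060, plus strand: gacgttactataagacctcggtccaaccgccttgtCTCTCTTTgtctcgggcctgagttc
Rps12, chr10:23787190-23787249, minus strand: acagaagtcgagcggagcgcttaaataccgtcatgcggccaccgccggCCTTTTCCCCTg
Rps6, chr4:86857348-86857407, minus strand: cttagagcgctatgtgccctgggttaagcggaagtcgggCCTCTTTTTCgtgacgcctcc
Rpl38, chr11:114668540-114668599, plus strand: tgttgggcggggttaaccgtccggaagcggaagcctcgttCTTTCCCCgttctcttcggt
Rpl22l1, chr3:28805468-28805527, plus strand: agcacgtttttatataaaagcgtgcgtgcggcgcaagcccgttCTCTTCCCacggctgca
Rplp0, chr5:115559427-115559486, plus strand: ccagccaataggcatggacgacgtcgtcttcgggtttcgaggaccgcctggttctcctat
Rps4x, chrX:102189372-102189431, minus strand: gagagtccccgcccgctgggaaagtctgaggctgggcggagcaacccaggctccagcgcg
Rps28, chr17:33824543-33824602, minus strand: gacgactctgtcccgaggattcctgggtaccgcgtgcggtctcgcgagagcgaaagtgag

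Promoter windows (250 bases before to 50 after the start) were matched by symbol for 66 of the 90 members. A pyrimidine run at the start was found in 36 of these 66 genes, 54.5%, against 21.9% of 27025 genes in the same table. The letters CCGGAAG, the core bound by ETS family factors, were found on either strand in 39.4% of the matched members and 9.93% of all genes. AANATGGC, the YY1 motif, was found in 19.7% against 6.96%, and GGGCGG, the SP1 motif, in 59.1% against 38.2%. TATAAA was found in 10.6% against 15.7%. These are matches of letters in a fixed window and do not show binding.

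The libraries held between 13195538 and 33606851 reads in the shared genes, fewest at P0 and most at P14. P14 replicate 2 stood apart: its mean correlation with the other P14 libraries over all tested genes was 0.951, while the mean within-age correlation of every other library was at least 0.976. Excitatory neuron markers were present at every age, with a summed level between 2088 and 2361 scaled CPM in the P0 libraries, between 1809 and 2814 at P14, and between 3037 and 3191 at P28. Much of the later sum was Slc17a7, the vesicular glutamate transporter, with a mean of 129 at P0, 1444 at P14 and 2008 at P28. Without it the sum lay between 1958 and 2216 in the P0 libraries, between 976 and 1118 at P14, and between 1101 and 1143 at P28. Of the 14 markers 7 fell and 2 rose by P14, with a median log2 fold change of −0.60, and 9 were lower and 3 higher at P28 than at P0. Markers of cells outside the NEX-Cre lineage were also present, and their values are given after those of the members.

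Ribosomal protein RNA made up less of the nuclear RNA at each later age. The 90 genes took 1.85%, 1.46%, 1.40% and 1.57% of the reads in P0 replicates 1 to 4, a mean of 1.57% ± 0.198 (SD, n = 4). At P14 they took 0.701%, 0.753%, 0.667% and 0.664%, a mean of 0.696% ± 0.0413 (SD, n = 4). At P28 they took 0.556%, 0.557%, 0.503% and 0.516%, a mean of 0.533% ± 0.0277 (SD, n = 4). The 3 ages did not overlap. In bulk nuclei, fewer cells of a type and less RNA per cell cannot be told apart.

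Between P0 and P14 the family fell almost as a whole. Of the 84 tested members, 79 fell, 2 rose (Rpl22l1 and Rpl24) and 3 did not pass the test (Rpl13a, Rpl10a and Rpl36al). Over all 15734 genes tested, 34.5% fell and 34.4% rose. The median log2 fold change of the members was −1.20, and the median of all genes was 0.01. At least a 2-fold fall was measured in 59 members, and at least a 4-fold fall in 1, Rplp0. In 76 members every P14 library was below every P0 library, which held for 30.2% of all genes.

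**Figure D1:**
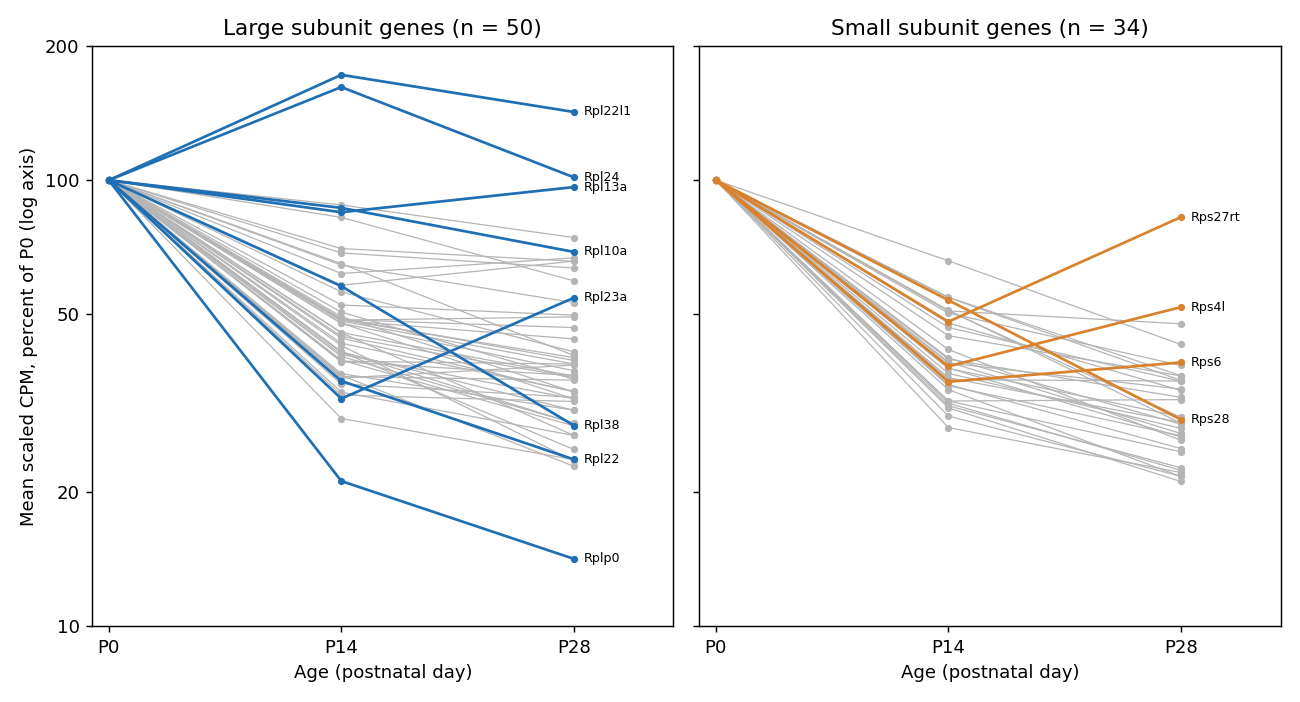
Mean level of each tested ribosomal protein gene (n = 4 libraries per age) as a percent of its P0 mean, on a log axis, for 50 large subunit genes and 34 small subunit genes. Coloured lines are labelled genes and grey lines are the other members; most lines fall by P14, while Rpl22l1 and Rpl24 are above their P0 level at P14.

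The acidic stalk of the large subunit, where translation factors dock, showed the deepest fall of the family in Rplp0. Rplp0 was at 525, 437, 472 and 500.4 scaled CPM in the P0 libraries, at 123, 73.9, 112 and 100.1 in the P14 libraries, and at 75.4, 68.9, 62.2 and 67.4 in the P28 libraries. The P0 libraries lay far above the rest, and P14 replicate 2 lay within the P28 range. The log2 fold change was −2.26 (SE 0.135, adjusted p = 8.15e-09) from P0 to P14 and −0.55 (SE 0.135, adjusted p = 0.0137) from P14 to P28. The stalk partners carried by Rplp0 had smaller fold changes by P14. Rplp1 fell, with −1.04 (SE 0.128) on the log2 scale, as did Rplp2 with −1.07 (SE 0.185), and neither passed the test from P14 to P28. The difference between Rplp0 and its partners was not tested.

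Rpl5 and Rpl11 join the 5S ribosomal RNA in one particle and bind Mdm2 when ribosome assembly is disturbed. Rpl11 had 272, 193, 191 and 229 scaled CPM at P0, 74.1, 76.1, 68.5 and 77.9 at P14, and 62.5, 60.0, 58.0 and 56.7 at P28. No 2 ages overlapped, although the second step did not pass the test (log2 fold change −0.32, adjusted p = 0.0558). It passed without P0 replicate 1 (adjusted p = 0.0229) and without P14 replicate 2 (adjusted p = 0.0491). Rpl5 was at 257, 184, 171 and 198 at P0 and 73.9, 114, 79.3 and 81.5 at P14, a log2 fold change of −1.21 (SE 0.144, adjusted p = 5.86e-06). P14 replicate 2 had the highest Rpl5 level of its age.

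In the small subunit, all 34 tested members fell by P14. The largest fall was in Rps4x (log2 fold change −1.83, SE 0.10), and Rps12 was also among the largest (−1.69, SE 0.158). Rps4x, an X-linked gene, had 481, 378, 352 and 375 scaled CPM at P0 and 119, 103, 109 and 111 at P14. The lowest P0 library was thus well above the highest P14 library. Rps19, the gene most often mutated in Diamond-Blackfan anaemia, was at 180, 147, 139 and 169 at P0, at 45.0, 57.9, 47.5 and 47.5 at P14, and at 35.9, 37.0, 34.1 and 36.7 at P28. Its 3 ages did not overlap. Rpsa, which also serves as a laminin receptor, fell from 481 ± 61.7 to 152 ± 5.69 and 108 ± 7.11 scaled CPM (SD, n = 4 each).

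Rps6, the substrate of the S6 kinases, reached its lower level by P14. It had 142, 135, 137 and 144 scaled CPM at P0, 54.3, 42.3, 48.0 and 52.2 at P14, and 59.7, 55.7, 49.6 and 52.4 at P28. The P14 and P28 libraries overlapped. The log2 fold change was −1.50 (SE 0.093, adjusted p = 1.07e-08) for the first step and 0.14 (SE 0.093, adjusted p = 0.294) for the second.

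Rps27a encodes a small subunit protein fused to ubiquitin and so feeds the ubiquitin pool. It was at 258, 185, 164 and 208 scaled CPM at P0 and at 86.8, 115, 89.6 and 89.0 at P14, a log2 fold change of −1.08 (SE 0.131, adjusted p = 6.85e-06). Fau, which encodes a small subunit protein fused to a ubiquitin-like one and lies outside the symbol rule, fell from 113 to 49.98 (log2 fold change −1.17, SE 0.116, adjusted p = 9.95e-07).

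Levels can be compared between genes only per length, here per kilobase of the median protein-coding transcript. By this measure the highest members at P0 were Rplp1 at 621 ± 98.1, Rps15 at 616 ± 82.4 and Rpl4 at 544 ± 61.3 scaled CPM per kilobase (SD, n = 4 each), whose values overlap within their SD. The lowest of the tested members were Rps27rt at 4.18 ± 1.38, Rpl23a at 11.1 ± 5.06 and Rpl13a at 22.5 ± 3.32. Of the 84 tested members 81 had a length, and Rpl24, Rpl41 and Rpl37rt did not.

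Rpl24, which rose by P14, rests on few reads. It had 1.14, 1.604, 1.65 and 1.65 scaled CPM at P0, from 19 to 22 reads, and 1.98, 2.89, 2.43 and 2.48 at P14, from 52 to 101 reads. The groups did not overlap, and the log2 fold change was 0.55 (SE 0.165, adjusted p = 0.00932). At P28 it was back at 1.53 ± 0.288 (SD, n = 4). Rpl13a did not pass the test in any comparison: it was at 22.6 ± 3.33 at P0, 19.2 ± 3.61 at P14 and 21.8 ± 1.46 at P28 (SD, n = 4 each). Without P14 replicate 2 it passed from P0 to P14, with a log2 fold change of −0.34 (adjusted p = 0.0287). Ribosomal protein genes have many near-identical processed copies, so reads may have been split or set aside in counting, and levels of members such as Rpl24, Rpl23a, Rpl13a and Rps27rt are uncertain. Whether this bears on them was not tested. Set against the members' reads, the 113 named pseudogenes held 0.231% to 0.248% in the P0 libraries. They held 0.504% to 0.564% in those of P14 and 0.661% to 0.772% in those of P28. The members' own mean share of all reads fell from 1.57% to 0.696% and 0.533%, which by itself raises this percentage.

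From P14 to P28 the family fell further, by less. Of the 84 members 44 fell, none rose and 40 did not pass the test, while 9.09% of all genes tested fell and 9.22% rose. The count of members higher was also 0 with edgeR and with DESeq2, and 2 members, Rpl23a and Rps4l, were higher at an unadjusted p under the threshold. In 52 members every P28 library was below every P14 library, against 13.2% of all genes. The median log2 fold change was −0.35 against −0.01 for all genes. The largest falls were in Rpl38 (−1.01, SE 0.142, adjusted p = 6.24e-04), Rps28 (−0.85, SE 0.141, adjusted p = 0.00153), Rpl39 (−0.84, SE 0.148, adjusted p = 0.00221) and Rps27l (−0.79, SE 0.118, adjusted p = 8.09e-04). On the deposited values without rescaling, 68 members fell, and there the median of all genes was itself −0.20 and that of the members −0.55.

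Rpl38, known for its part in translating Hox mRNAs in the embryo, was at 94.2, 74.1, 70.3 and 93.6 scaled CPM at P0, at 44.1, 62.7, 42.7 and 42.7 at P14, and at 25.1, 24.7, 20.7 and 23.1 at P28. P14 replicate 2 was the highest of its age, and the ages still did not overlap. Rps28 followed a like course, from 69.0 ± 5.27 to 37.2 ± 9.50 and 20.1 ± 1.39 (SD, n = 4 each). Rpl39, an X-linked gene whose protein lines the exit tunnel, went from 64.4 ± 15.9 to 27.4 ± 2.15 and 15.1 ± 1.17 (SD, n = 4 each).

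**Figure D2:**
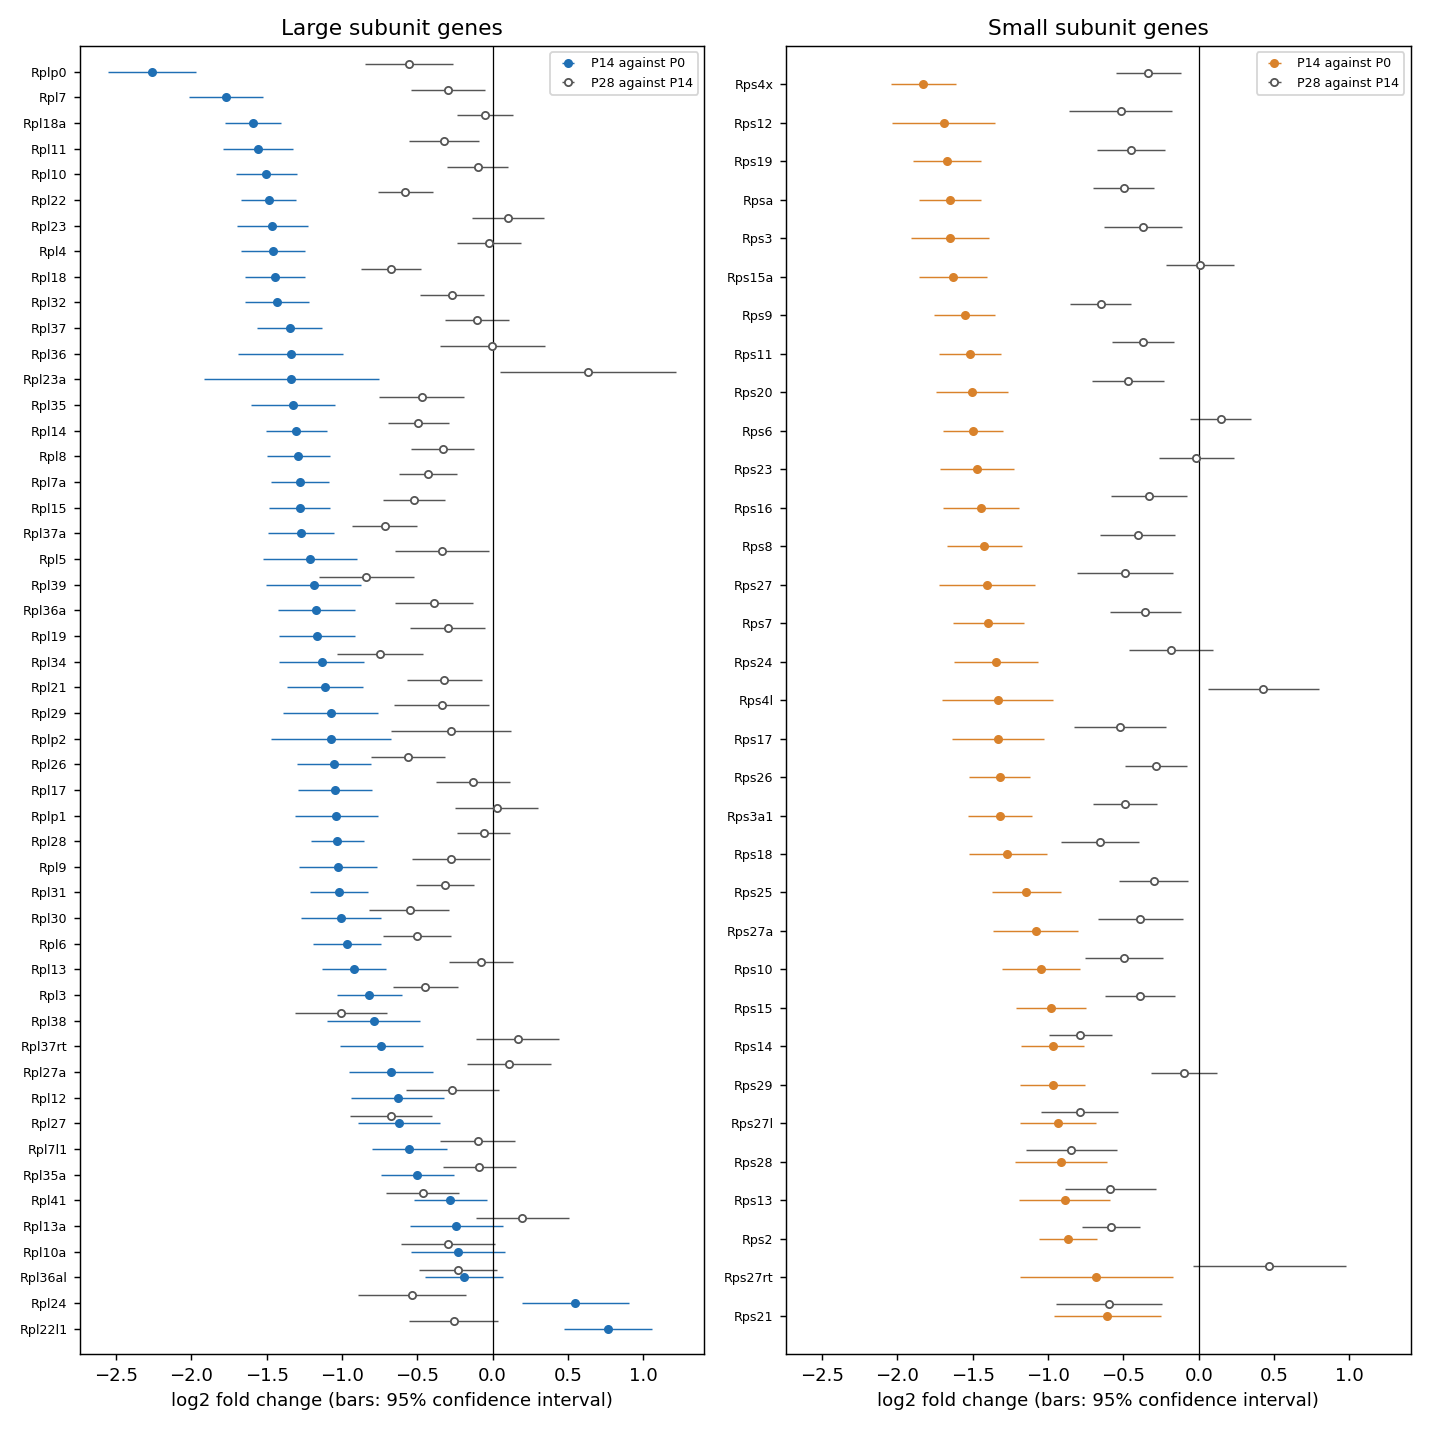
The log2 fold change of 83 of the 84 tested members with its 95% confidence interval, filled for P14 against P0 and open for P28 against P14, sorted by the former within each subunit. Rplp0 lies furthest to the left at −2.26 and Rpl22l1 furthest to the right at 0.77, and the open points lie closer to 0 for most genes.

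From P0 to P28, 80 members were lower, 1 was higher (Rpl22l1) and 3 did not pass the test (Rpl13a, Rpl24 and Rps27rt). Of all genes 35.6% were lower and 35.7% were higher. In 79 members the P28 libraries all lay below the P0 libraries, against 35.7% of all genes. The members' median was −1.55, with 69 at least 2-fold and 12 at least 4-fold lower. Rplp0 led with −2.81 (SE 0.135), followed by Rps12 with −2.21 (SE 0.158) and Rps9 with −2.20 (SE 0.094). This comparison shares its libraries with the previous 2 and is not separate from them.

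The balance of large to small subunit reads differed between the ages. From P0 to P14 the median log2 fold change was −1.09 over 50 large subunit genes, of which 45 fell and 2 rose, and −1.34 over 34 small subunit genes. From P14 to P28 it was −0.31 with 21 of 50 lower, and −0.43 with 23 of 34 lower. The reads of all large subunit genes over those of all small subunit genes came to 1.32, 1.32, 1.34 and 1.34 at P0, 1.53, 1.47, 1.56 and 1.53 at P14, and 1.63, 1.62, 1.65 and 1.66 at P28. These read ratios did not overlap between ages. The difference of the 2 subunits' median log2 levels did overlap, between P0 and P14 and between P14 and P28, but not between P0 and P28. These levels are not per length, so only the change of the difference between ages can be read. It was −0.14 ± 0.0599 at P0, −0.05 ± 0.180 at P14 and 0.14 ± 0.0853 at P28 (SD, n = 4 each), with P14 replicate 2 at −0.31. The median log2 fold change of the large subunit less that of the small was 0.25 for P14 against P0 and 0.12 for P28 against P14, and the latter was 0.07 without P14 replicate 2. No test was run on these scores over members.

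Paralogs and their partners were set side by side at each age. Rpl22l1 and Rpl22 encode near relatives that can each fill the same place in the large subunit. Rpl22 had 293, 245, 242 and 287 scaled CPM at P0, 90.2, 101, 93.6 and 93.3 at P14, and 65.1, 61.1, 61.5 and 64.9 at P28. Rpl22l1 had 28.48, 25.7, 20.6 and 26.6 at P0, 38.6, 54.2, 45.7 and 36.3 at P14, and 37.9, 38.0, 36.1 and 32.3 at P28. Every P14 and P28 library was thus lower than every P0 library for Rpl22 and higher for Rpl22l1. The log2 fold change to P14 was −1.49 (SE 0.085, adjusted p = 4.75e-09) for Rpl22 and 0.77 (SE 0.136, adjusted p = 2.18e-04) for Rpl22l1. Per kilobase, Rpl22l1 was below Rpl22 at P0, at 51.9 ± 6.91 against 211 ± 21.25 scaled CPM per kilobase (SD, n = 4 each). It was at 89.3 ± 16.5 against 74.97 ± 3.77 at P14 and at 73.8 ± 5.41 against 50.01 ± 1.71 at P28. Without division by length, Rpl22l1 stayed below Rpl22 in every library. The order per kilobase at P14 and P28 thus rests on the lengths used, 489 bases for Rpl22l1 and 1262.5 for Rpl22. Whether these lengths hold for the transcripts in these nuclei was not tested.

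**Figure D3:**
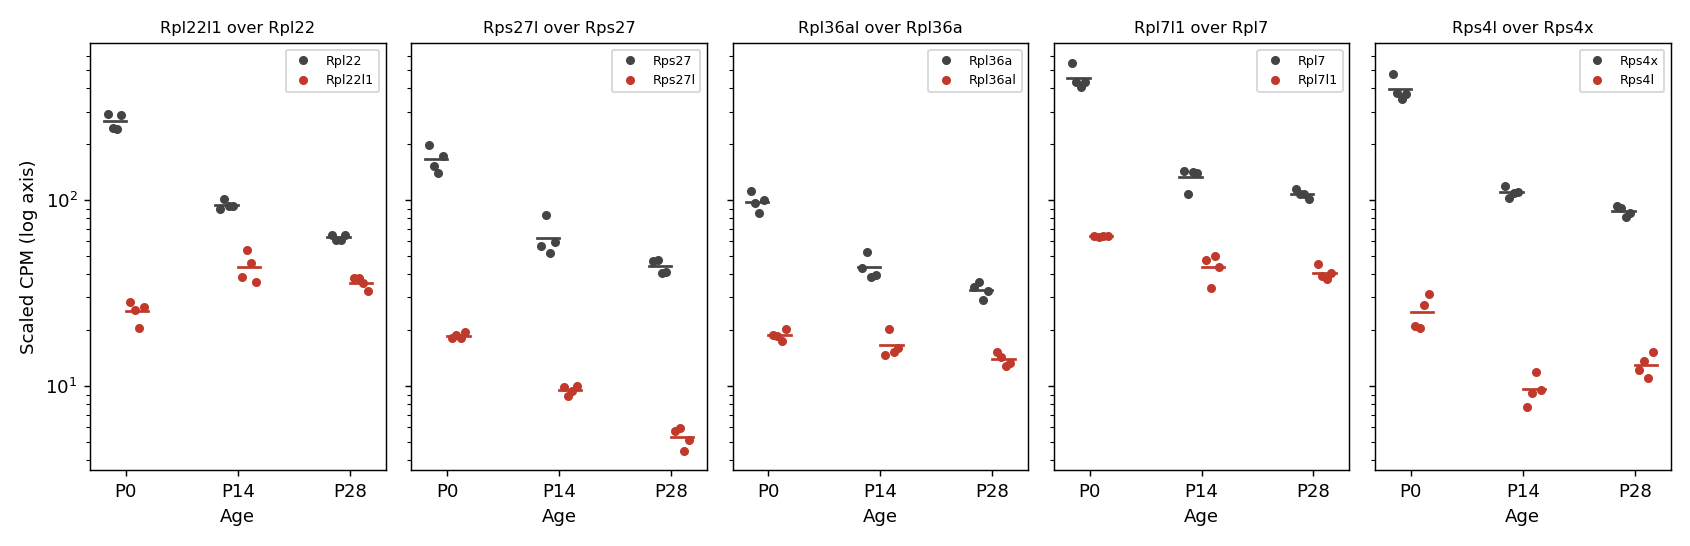
Scaled CPM on a log axis in each library (points) with the mean of 4 libraries (bars) for 5 paralogs in red and their partners in dark grey. Rpl22l1 is the only paralog of the 5 whose P14 libraries all lie above its P0 libraries.

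The log2 ratio of paralog to partner was compared between ages for 5 pairs, 15 exact two-sided permutation tests in all, in which the smallest p that 4 against 4 libraries allow is 0.0286. Of these, 8 reached that p, and after Benjamini-Hochberg adjustment over the 15 they stood at 0.0536, so none passed 0.05. The count past 0.05 was 10 without P14 replicate 2 and 9 without P14 replicate 3. Tests at the smallest p share 1 adjusted p, set by how many of the 15 reach it. Whether they pass 0.05 therefore does not measure how large the change of any pair was. The log2 ratio of Rpl22l1 to Rpl22 was higher by 2.25 at P14 than at P0. That of Rpl7l1 to Rpl7 was higher by 1.22 and that of Rpl36al to Rpl36a by 0.98, each without overlap between the ages. In Rpl7l1, unlike Rpl22l1, the paralog itself fell (log2 fold change −0.55, SE 0.115, adjusted p = 7.50e-04), less than Rpl7 (−1.77, SE 0.113). Rpl36al did not pass the test by P14 (−0.19, SE 0.12, adjusted p = 0.176; without P14 replicate 2, −0.29 and adjusted p = 0.0235), while Rpl36a fell by 1.17 on the log2 scale. On the deposited values without rescaling, Rpl36al had 0.28 (adjusted p = 0.0418), where the median of all genes was 0.47.

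Rps27l fell beside Rps27, with 18.1, 18.8, 18.2 and 19.5 scaled CPM at P0, 9.92, 8.84, 9.36 and 9.997 at P14, and 5.73, 5.97, 4.48 and 5.11 at P28. Its ages did not overlap, and its ratio to Rps27 reached the smallest exact p in none of the 3 comparisons. In the comparisons that include P14, this rested on P14 replicate 2. Without that library the log2 ratio was higher by 0.65 at P14 than at P0, and the change from P14 to P28 was −0.48. With it the latter was −0.30 (adjusted p = 0.0429 for both without it, exact permutation test). The ratio was higher by 0.17 at P28 than at P0 (adjusted p = 0.2, same test). With 2 CPM added to each level in place of 0.5, that difference was 0.36 (adjusted p = 0.0476, same test). The added 2 CPM weigh more on Rps27l, at a mean of 5.32 scaled CPM at P28, than on Rps27, at 44.1. Rps4l, a transcribed pseudogene by RefSeq, was at 25.1 ± 5.29, 9.59 ± 1.76 and 13.02 ± 1.78 scaled CPM at P0, P14 and P28 (SD, n = 4 each). Its log2 ratio to Rps4x was higher at P28 than at P14 by 0.76, without overlap. Rpl10, the X-linked partner of a testis paralog, fell from 253 ± 35.9 to 88.3 ± 2.49 by P14 and was at 82.5 ± 2.54 at P28 (SD, n = 4 each).

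The 6 members that were not tested were Rpl3l, Rpl39l, Rpl6l, Rps23rg1, Rps3a2 and Rps3a3. Rpl3l, the muscle form of Rpl3, had 2, 0, 0 and 1 reads at P0, 16, 28, 15 and 17 at P14, and 4, 5, 7 and 13 at P28. It stayed below 1 scaled CPM in every library. Rpl39l had at most 4 reads in any library.

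The transcripts most like the family over the 12 libraries, by Pearson correlation of their log2 level with the mean of the tested members, were Eif3f (0.999), Rack1 (0.997) and Psme1 (0.996). The correlation is a description, since age separates the libraries. Rack1, which sits on the small subunit as a scaffold, had 612, 520.4, 537 and 567 scaled CPM at P0, 198, 238, 197 and 191 at P14, and 172, 160.4, 146 and 156 at P28. Eif3f, a subunit of initiation factor eIF3, fell by 1.29 on the log2 scale by P14 (SE 0.104, adjusted p = 1.44e-07).

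Other genes with TOP mRNAs, or with proteins on the ribosome, mostly moved in the same direction as the family. Of 19 genes, 17 fell by P14, 1 rose and 1, Nap1l1, did not pass the test, with a median log2 fold change of −1.29. Hnrnpa1 fell from 484 to 80.5 scaled CPM (−2.61, SE 0.139) and Eef1a1, the elongation factor that brings aminoacyl-tRNA, from 3123 to 683 (−2.24, SE 0.173). From P14 to P28, 5 of the 19 passed the test, all downward.

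Genes that make ribosomes were found among those that fell and those that rose, as were 34.5% and 34.4% of all genes. Of 34 ribosome biogenesis genes, 14 fell by P14 and 6 rose, with a median of −0.29. Ncl, the nucleolar protein nucleolin, fell from 593 to 231 scaled CPM (−1.39, SE 0.138, adjusted p = 1.1e-06), while Sbds, which helps to mature the large subunit, rose from 25.1 to 49.3 (0.96, SE 0.084, adjusted p = 2.86e-07). Of 16 genes of RNA polymerase I, which transcribes ribosomal RNA, 5 fell and 4 rose, shares no larger than those of all genes. Its initiation factor Rrn3 fell by 1.06 (SE 0.127, adjusted p = 6.43e-06). Of 6 ribosomal protein chaperones, 2 fell and 1 rose. Of 8 snoRNA host genes 2 passed the test, both upward, Snhg8 (1.24, SE 0.206) and Snhg12 (0.93, SE 0.251). P14 replicate 2 stood apart in this list, with a sum of 786 scaled CPM against 299 to 375 in the other P14 libraries and 242 to 405 in those of P0. Snhg12 was at 59.6 there and at 24.1, 27.9 and 30.4 in the other P14 libraries, which overlap the P0 libraries at 26.1, 15.9, 13.1 and 15.9.

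Of 20 regulators of ribosomal protein genes and TOP mRNAs, 12 fell by P14 and 2 rose, with a median of −0.41. The shares of all genes tested were 34.5% lower and 34.4% higher. Myc and Mycn, transcription factors that drive ribosome production, fell by 1.89 (SE 0.194) and 1.90 (SE 0.116) on the log2 scale. Larp1, which binds the TOP motif, fell from 171 to 106 scaled CPM (−0.68, SE 0.090, adjusted p = 1.56e-05). Rps6kb2, the gene of an S6 kinase, was among those that rose, from 36.2 to 111 (1.46, SE 0.302, adjusted p = 7.34e-04). P14 replicate 2 was its highest library, at 214. Of 77 mitochondrial ribosomal protein genes, which are encoded in the nucleus and serve another ribosome, 36 rose and 5 fell, with a median of 0.27.

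**Figure D4:**
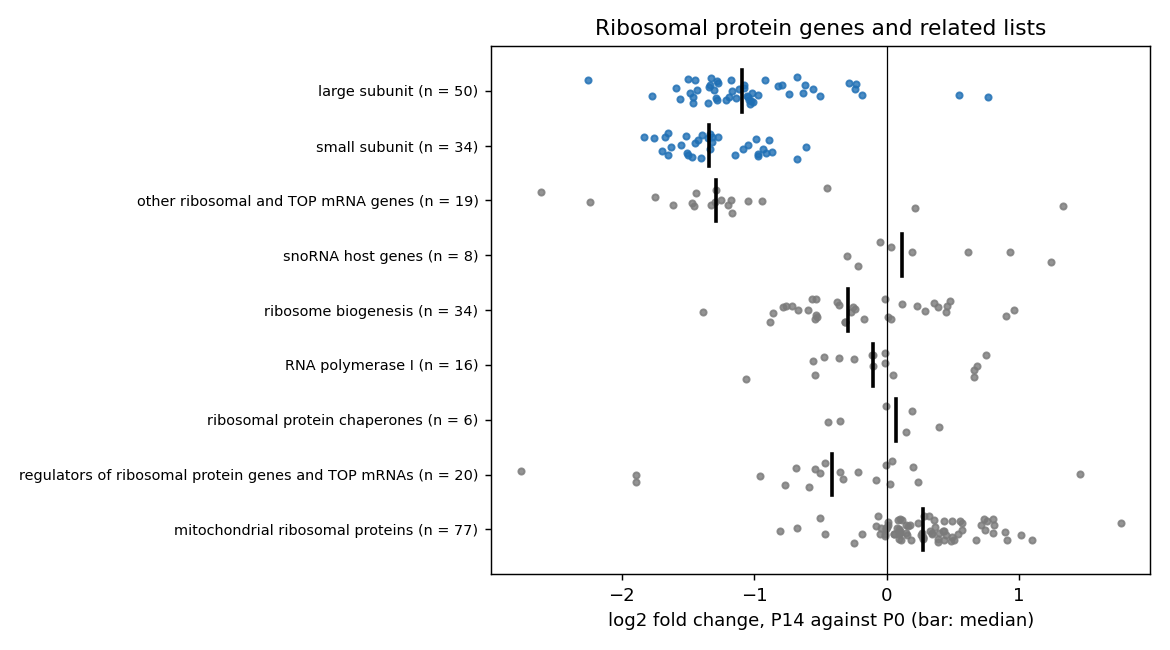
The log2 fold change from P0 to P14 of each tested gene (points, jittered vertically) in the 2 ribosomal subunits and 7 related lists, with the median as a bar. The medians of both subunits and of the other TOP mRNA genes lie between −1.34 and −1.09, and that of 77 mitochondrial ribosomal protein genes lies at 0.27.

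Members with and without a pyrimidine run at the start had close medians, with no test of the difference. Among tested members with a matched window, the median log2 fold change from P0 to P14 was −1.15 over 34 genes with a run and −1.21 over 29 without. The 2 ranges overlapped, from −1.69 to 0.77 with a run and from −2.26 to 0.55 without. Of the sequences shown above, Rplp0 and Rps4x have no run and the largest falls of their subunits from P0 to P14, and Rpl22l1 has one and rose. The split depends on the RefSeq start, since a run counts only if it begins within 10 bases of it. Rpl4 counts as without a run, although it holds one that begins further upstream, since too little of it lies inside the limit. Whether members without a run lack a TOP mRNA was not tested.

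Several cell type marker lists changed with age, some in the direction of the family and some against it. Over all genes tested, 34.5% fell and 34.4% rose by P14. All 11 vascular markers fell by P14, with a summed level between 1525 and 2783 scaled CPM in the P0 libraries, between 315 and 448 at P14, and between 252 and 307 at P28. Of 14 progenitor and cell cycle genes 12 fell, from a sum of 617 to 845 at P0 to 155 to 236 at P14. All 10 oligodendrocyte markers rose, from a sum of 103 to 112 at P0, where Opalin had no read, to 1003 to 2479 at P14. Of 9 astrocyte markers 5 rose and 1 fell, with a sum between 549 and 739 in the P0 libraries, between 1462 and 2747 at P14, and between 1678 and 1836 at P28. Of 10 microglia markers 9 rose, with a sum between 40.9 and 63.5 in the P0 libraries, between 71.1 and 133 at P14, and between 108 and 125 at P28. Of 11 inhibitory neuron markers 5 fell and 2 rose, with a sum between 494 and 529 in the P0 libraries, between 247 and 393 at P14, and between 321 and 417 at P28. The 7 oligodendrocyte precursor markers, of which 2 fell and 3 rose, summed to 148 to 175 at P0 and 117 to 222 at P14. The 4 erythroid markers, of which 3 fell, summed to 52.5 to 59.2 at P0 and 20.4 to 40.2 at P14. Nuclear long noncoding RNAs rose in 7 of 8 cases, from a sum of 2176 to 3945 to one of 9613 to 26570, the highest in P14 replicate 2. The part of these changes in the fall of ribosomal protein RNA was not tested.

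P14 replicate 2 departed from the other P14 libraries in both directions. Of 84 members it was the highest of its age in 52 and the lowest in 23, among them Rplp0 and Rpl7. Libraries of other ages had counts as large, each mostly in the same direction. P0 replicate 1 was the highest of its age in 55 and the lowest in 5, and P28 replicate 1 in 53 and 2. P0 replicate 3 was the lowest of its age in 58 and the highest in 2, and P28 replicate 3 in 60 and 1. Over the 81 members with a length, the deviation of P14 replicate 2 and the log2 transcript length had a Pearson r of −0.38 and a Spearman rho of −0.39. This is a description across genes of 1 library. P28 replicate 2 was close to it, with −0.35 and −0.33, and the Pearson r of the other 10 libraries lay between −0.26 and 0.32. Without P14 replicate 2, 82 members fell and 2 rose from P0 to P14, and 49 fell from P14 to P28.

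**Figure D5:**
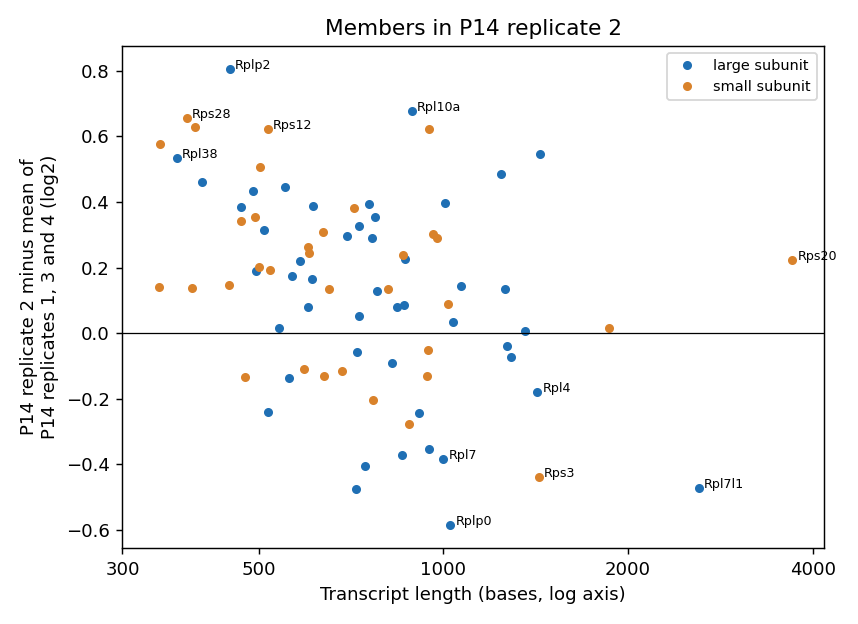
Log2 level of each tested member in P14 replicate 2 minus its mean in the other 3 P14 libraries, against transcript length on a log axis, for the 81 members with a length. Most members lie above 0, and Rplp0, Rpl7, Rps3 and Rpl7l1 lie below it.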

How the data were processed

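The authors deposited 1 table per age of normalized counts, here called signal, which the submitters' processing notes tie to DESeq2 and mm10. The aligner, the counter and the use of strand were not given in the sources used here. RNA was polyadenylated and libraries were made with a stranded kit, per the labels' protocols. Each deposited column is a whole read count divided by 1 factor: 100% of values came out whole within 0.05 reads. Columns were divided by their total over the 25834 shared genes and scaled by median-of-ratios factors over the 12 libraries.

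Genes at 1 scaled CPM or more in at least 4 libraries (15734) were tested with limma 3.58.1 (trend and robust, two-sided) on log2(scaled CPM + 0.5), with 1 spread for all ages and Benjamini-Hochberg adjusted p below 0.05. Fold changes on this scale understate those of low genes. Fits were tested on simulated data, where DESeq2 made the most false calls of the 3 tools. As alternatives on recovered reads, edgeR 4.0.16 called 10834, 3002 and 11094 genes for P14 against P0, P28 against P14 and P28 against P0, and DESeq2 1.42.0 called 11041, 3876 and 11316, where limma called 10848, 2881 and 11207. Lengths are medians over protein-coding transcripts of GENCODE M1. Promoter windows, gene classes and coordinates are from RefSeq (GRCm38.p6). Of the list genes, 9 were matched by identifier.

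Members, lists and tests were chosen with earlier results of these data known. Named members were the paralogs and partners, the 4 largest rises and falls per comparison with a mean of at least 5 scaled CPM, the 3 highest and lowest per kilobase at P0, those called against the majority, and 7 named for their roles; a few genes are not reported here by name. Rpl10a, Rplp2, Rpl41, Rpl37rt, Rps3 and the untested copies were named after their values were seen, as were the other genes outside the lists' 3 lowest p-values.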

Additional observations from a re-analysis of the deposited data

Results flagged for a closer look

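Among the named members and 2 family summaries, 102 groups of 4 libraries were examined for a library far from the other 3, and 7 held one; chance gives about 5% of groups. P14 replicate 2 accounted for 5 of the 7. It was the highest of its age for Rpl38 at 62.7 scaled CPM, Rps12 at 94.4, Rps27a at 115 and Rps28 at 51.4, and the lowest for Rpl7 at 109. In P0 replicate 1 Rpl24 was the lowest of its age at 1.14 scaled CPM, from 19 reads. In P0 replicate 2 Rpl7l1 was the lowest at 63.1, in a group whose SD was 0.566.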

How the results depend on the processing

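Of 216 alternative values for the counts and the subunit difference, 210 stayed within 1.5 times the count or 1 SD of the value given. The exceptions were 68 members lower from P14 to P28 on deposited values without rescaling, 1 member higher at P14 than P0 with a filter at a mean of 5 scaled CPM, 2 higher at P28 than P0 with no filter, and 9 of 15 paralog ratios past the threshold with a pseudocount of 2 CPM. Leaving out 1 library at a time, 77 to 82 members fell and 2 rose each time from P0 to P14, 30 to 49 fell from P14 to P28, 79 to 80 were lower at P28 than P0, and 0 to 10 paralog ratios passed, with 10 without P14 replicate 2 and 9 without P14 replicate 3. The count of paralog ratios turns on how many of the 15 tests reach the smallest p, as described above. The subunit difference ran from 0.21 to 0.28 for P14 against P0 and from 0.27 to 0.34 for P28 against P0. For P28 against P14 it ran from 0.07 (without P14 replicate 2) to 0.12. On deposited values Rpl36al changed sign at P14 (0.28), where the median of all genes shifted to 0.47 from P0 to P14, 0.27 from P0 to P28 and −0.20 from P14 to P28, and 3190 genes fell and 8495 rose by P14. The cause of these changes was not tested. Calls from P14 to P28 were the least stable: those of Rps4x, Rps12, Rps15, Rps27, Rpl36a and Rpl24 were lost when P28 replicate 3 was left out. With the replicate number as a block, 79, 43 and 79 members were lower in the 3 comparisons. The correlations of the deviations of same-numbered libraries ran from −0.51 to 0.36. They cannot show whether these libraries shared more than a number, since a shift common to all members does not enter them. Replicate 1 was the highest of its age in 55 members at P0, 21 at P14 and 53 at P28. Replicate 3 was the lowest in 58, 25 and 60. Whether this reflects anything shared was not tested. Leaving out the paralogs listed, the subunit difference was 0.24, 0.11 and 0.30, and leaving out 6 further copies, chosen after seeing the data, 0.25, 0.12 and 0.29. Low read numbers limit Rpl24, Rps27rt and the untested copies.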
